A study of Mus musculus with 8 samples.

Results

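The Hox genes encode homeodomain transcription factors that lie in 4 clusters, and the genes described here are 38 of them together with Evx1 and Evx2, which encode related homeodomain factors and sit beyond the group 13 end of the Hoxa and Hoxd clusters. They were taken by name from a fixed list, giving 40 genes of 21887 protein-coding genes: 11 in Hoxa with Evx1, 10 in Hoxb, 9 in Hoxc and 10 in Hoxd with Evx2. Each cluster was treated as a single domain, from its first to its last member with 50 kb on either side. On the mm10 mouse build the Hoxa domain ran on chromosome 6 from 52112417 to 52368389, Hoxb on chromosome 11 from 96144316 to 96418254, Hoxc on chromosome 15 from 102871131 to 103086856 and Hoxd on chromosome 2 from 74602989 to 74815142.

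Genes of a Hox cluster are numbered by paralogue group, and their order on the chromosome mirrors the order in which they are switched on in time and along the head-to-tail axis of the embryo. Low groups act in the hindbrain and neck, and high groups in the lumbar, tail, limb and genital regions. In pluripotent cells the clusters are known as large Polycomb domains, held silent but poised. H3K27ac, acetylation of lysine 27 of histone H3, marks active promoters and enhancers and occupies the residue that Polycomb methylates.

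The samples were mouse embryonic stem cells of line E14tg2a, 129SV background, with stable cRAF-ErT2, a RAF kinase that 4-hydroxytamoxifen (4OHT) switches on and that in turn activates ERK. All of them grew with serum, LIF and 2 uM Chir99021, which activates WNT signalling, and then for the last 24 h in serum medium with LIF and 250 nM PD173074, an FGF receptor inhibitor. A group of 2 libraries came from cells with no 4OHT and a group of 2 from cells given 250 nM 4OHT for 2 h, with clones a and b in each. The labels name no vehicle control and no cells without cRAF-ErT2, do not say what drives the transgene, and give no separate cultures within a clone, so p-values measure the spread between 2 clones.

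The lists held 59170 to 63276 peaks each and covered 50.4 to 53.1 Mb, with unknown read depth, so a place without a peak is not shown to lack the mark. Of 7 pluripotency genes, among them Pou5f1, Sox2, Nanog and Esrrb, 7 had a peak at or within 2 kb of the gene in all 4 libraries. Over all 21887 protein-coding genes, 56.8% did. Over 16049 gene loci the median log2 change with 4OHT was 0.08. In bulk chromatin, a mark in more cells and more of the mark per cell cannot be told apart.

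After 2 h of 4OHT, the Hoxa and Hoxd domains went from a few short peaks to peaks spread along the clusters, whereas Hoxb and Hoxc, which had more covered length to begin with, had less. Summed covered length was 2.36 and 3.91 kb in Hoxa and Hoxd together in the untreated clones a and b, and 17.8 and 17.5 kb in treated clones a and b. In Hoxb and Hoxc together it was 18.99 and 15.7 kb untreated and 12.2 and 11.8 kb treated. Hoxa and Hoxd therefore held 11.04% and 19.99% of the covered length of the 4 domains in untreated cells and 59.5% and 59.8% in treated cells. The log2 ratio of these sums differed by 3.07 between treatments, with no overlap between groups. An exact permutation test over the 4 libraries, two-sided, gave p = 0.333, the smallest that this design allows, and the clusters were joined in these pairs after their values were seen.

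**Figure D1:**
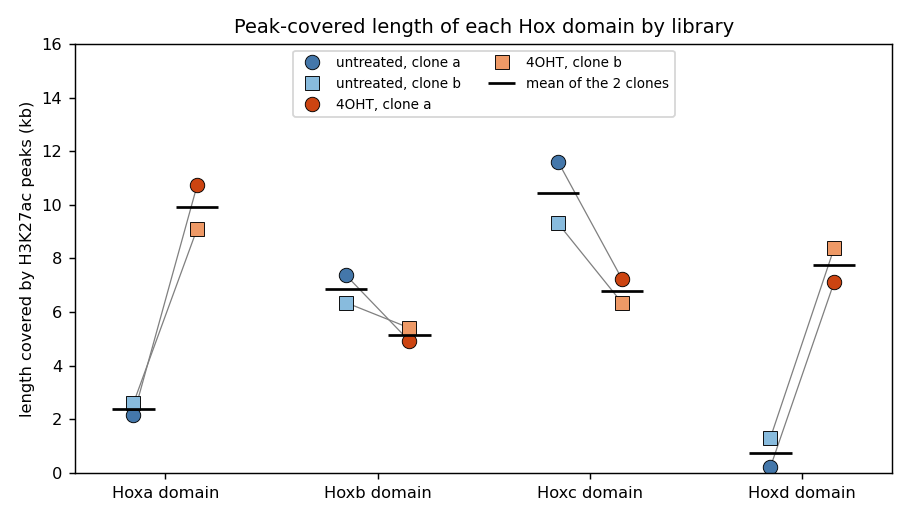
Length covered by H3K27ac peaks (kb) in the Hoxa, Hoxb, Hoxc and Hoxd domains, 1 point per library, with grey lines joining the 2 libraries of a clone and black bars at group means. Both treated libraries lie above both untreated ones in Hoxa and Hoxd (9.11 kb or more against 2.61 kb or less in Hoxa), and below both in Hoxb and Hoxc.

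The Hoxa domain had 2.14 kb covered in untreated clone a, 2.61 kb in untreated clone b, 10.7 kb in treated clone a and 9.11 kb in treated clone b. Its peaks numbered 4 and 6 in untreated and 17 in each treated library. The mean rose 4.18-fold, from 2.37 ± 0.327 to 9.92 ± 1.15 kb (SD, n = 2 clones). On the scale of log2(covered bp + 500), which understates changes of short lengths, it rose by 1.86 ± 0.16 (SE; limma adjusted p = 0.0239). The Hoxd domain had 0.214 and 1.31 kb without 4OHT in clones a and b, and 7.11 and 8.38 kb with it, from 1 and 4 untreated peaks and 14 and 17 treated ones. Its mean rose 10.2-fold, from 0.761 ± 0.773 to 7.74 ± 0.899 kb (log2 change 2.85 ± 0.44 SE; limma adjusted p = 0.0328). Of 16049 gene loci, 0.617% changed upward at least as much as Hoxa and 0.0436% at least as much as Hoxd. Loci of the clusters themselves are among the former, but the largest change of a member locus (Hoxd3, 2.84) was below that of the Hoxd domain. The domains span 212 to 274 kb and a locus is a gene with 50 kb on either side, so the lengths compared differ. Over all loci and domains, 6.88% passed the adjusted p threshold of 0.05, 4.01% upward and 2.87% downward.

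In the Hoxb domain, 7.38 and 6.36 kb were covered without 4OHT in clones a and b, and 4.91 and 5.41 kb with it. The log2 change was -0.38 ± 0.14 (limma adjusted p = 0.165), and 0.0440 with clone as a block in the model. In the Hoxc domain 11.6 and 9.31 kb were covered in untreated and 7.25 and 6.36 kb in treated clones a and b. Its log2 change was -0.58 ± 0.16 (limma adjusted p = 0.0890, and 0.00310 with the clone block). Neither passed without the block. With the block, Hoxa and Hoxd had limma adjusted p of 2.24e-04 and 3.16e-04, but 38.2% of all loci passed in that fit.

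Single libraries decided whether Hoxa and Hoxd passed the threshold, though not their direction. Without untreated clone a the log2 changes were 1.74 and 2.19 (adjusted p = 0.0534 each, in a fit that called 5 of 16093 loci). Without treated clone a they were 1.75 and 2.97 (adjusted p = 0.0634 and 0.0872, 0 of 16084 loci called, 3225 at unadjusted p under 0.05). Without treated clone b Hoxd changed by 2.74 (adjusted p = 0.0749) while Hoxa passed (1.97, adjusted p = 0.0386), and without untreated clone b both passed. Each of these limma fits leaves a single library in a group, which is then assumed to vary like the other group.

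**Figure D2:**
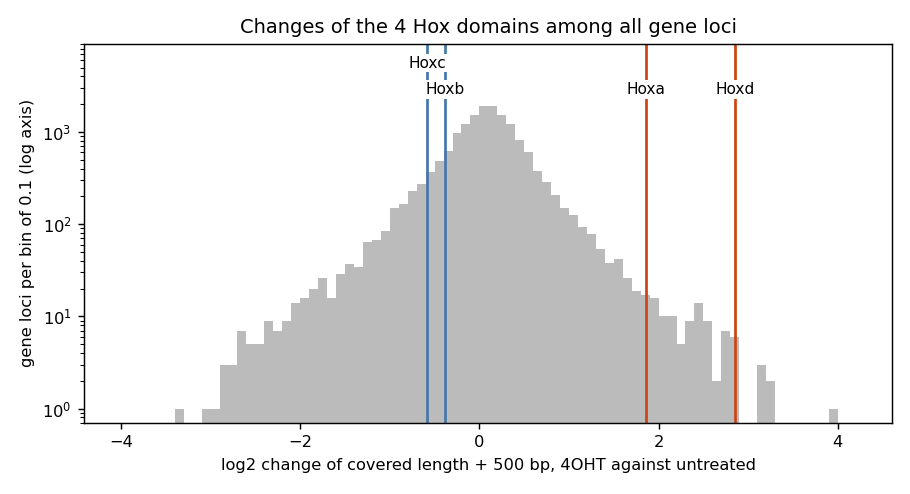
Distribution of log2 changes in covered length over 16049 gene loci (gene with 50 kb on either side; counts per bin of 0.1 on a log axis), with vertical lines at the 4 Hox domains. Hoxa (1.86) and Hoxd (2.85) lie in the upper tail, and Hoxb (-0.38) and Hoxc (-0.58) below the median of 0.08.

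Promoter sequences from RefSeq (GRCm38.p6, with mm10 coordinates) were matched to 24 of the 40 genes, giving 26 windows of 250 bases before to 50 after a start. A peak covered part of the window in both treated libraries at 3 of them, Hoxd13, Hoxd3 and Evx1. They are shown because they are the starts at which treated peaks lay, and each is printed 5′ to 3′ as the 250 bases before the start, with capitals where both treated libraries had a peak.
Evx1 (chr6:52313248-52313497, plus strand): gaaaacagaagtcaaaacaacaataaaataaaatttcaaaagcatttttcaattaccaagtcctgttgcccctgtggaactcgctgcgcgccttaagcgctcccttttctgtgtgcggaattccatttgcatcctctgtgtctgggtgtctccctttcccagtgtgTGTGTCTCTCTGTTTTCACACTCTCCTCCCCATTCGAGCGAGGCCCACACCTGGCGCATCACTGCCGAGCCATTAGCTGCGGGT
Hoxd3 (chr2:74711743-74711992, plus strand): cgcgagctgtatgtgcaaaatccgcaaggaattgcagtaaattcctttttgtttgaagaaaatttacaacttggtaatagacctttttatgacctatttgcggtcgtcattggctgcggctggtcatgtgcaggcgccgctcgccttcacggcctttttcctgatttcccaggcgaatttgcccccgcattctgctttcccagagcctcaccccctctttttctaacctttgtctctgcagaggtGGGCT
Hoxd13 (chr2:74667975-74668224, plus strand): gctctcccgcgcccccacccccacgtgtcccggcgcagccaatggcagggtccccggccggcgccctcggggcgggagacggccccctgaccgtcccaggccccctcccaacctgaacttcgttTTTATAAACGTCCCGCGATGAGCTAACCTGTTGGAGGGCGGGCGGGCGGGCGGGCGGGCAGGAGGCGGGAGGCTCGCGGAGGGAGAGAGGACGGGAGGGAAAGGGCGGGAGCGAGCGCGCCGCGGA
At Evx1, 84 of these bases were in both treated peaks and 0 of those in an untreated peak. At Hoxd3 they were 5 and 0, the peak lying mainly after the start. At Hoxd13 they were 126, of which 3 were also in a peak of untreated clone b. Of the 26 windows, 2 were covered in both treated and neither untreated library, against 1.98% of 32851 windows of all genes. The opposite was found at 0 of 26 and at 0.454% of all. In no library were 23 of the 26 covered, a share that was not counted over all windows. From Hoxb only Hoxb1, Hoxb4 and Hoxb8 had a window, and from Hoxc only Hoxc4, so these counts say little about those 2 clusters. Over all windows, 33.1% had a peak in both treated and 29.6% in both untreated libraries.

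The 26 windows had a median of 14.5 CpG per window (range 4 to 45) against 7 over all windows. Of all windows, 65.4% held fewer CpG than that median of 14.5. The Hoxd13 window held 37, Hoxd3 20 and Evx1 12. Letters of 5 motifs were searched on both strands, and none was found in these 3 windows. The AP-1 letters TGANTCA were in 1 of the 26 windows (Hoxd11) and 7.81% of all, and the ETS letters CCGGAAG in 0 and 8.86%. The CRE letters, TGACGTCA, were in 0 and 1.79%, and the TCF/LEF letters CTTTGAA in 2 (Hoxd12 and Hoxa11) and 5.14%. A PBX-HOX site, TGATTNAT, was in 2 (Hoxd11 and Hoxa2) and 3.22%.

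The next question was which genes of the clusters carried peaks of their own. Within each gene and 2 kb on either side, 8 of the 40 genes had a peak in untreated clone a, 13 in untreated clone b, 25 in treated clone a and 30 in treated clone b. In 12 of 40 a peak was present in both treated and neither untreated library, against 1.74% of all 21887 genes. These were Hoxa2, Hoxa5, Hoxa6, Hoxa10, Hoxa13, Evx1, Hoxc6, Hoxc9, Hoxd4, Hoxd10, Hoxd11 and Hoxd12. The opposite pattern was found in 0 of 40, against 0.822% of all genes. In 7 (Hoxa3, Hoxa4, Hoxa9, Hoxb2, Hoxb9, Hoxc12 and Hoxc13) all 4 libraries had a peak, against 56.8% of all genes, and in 9 (Hoxa11, Hoxb1, Hoxb4, Hoxb5, Hoxb6, Hoxb13, Hoxc5, Hoxc8 and Evx2) none did, against 31.7%. Windows overlap within a cluster: Hoxa5 and Hoxa6 share the same peaks, as do Hoxb7 and Hoxb8, and the Hoxa3 and Hoxd3 intervals contain those of Hoxa4 to Hoxa6 and of Hoxd4.

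**Figure D3:**
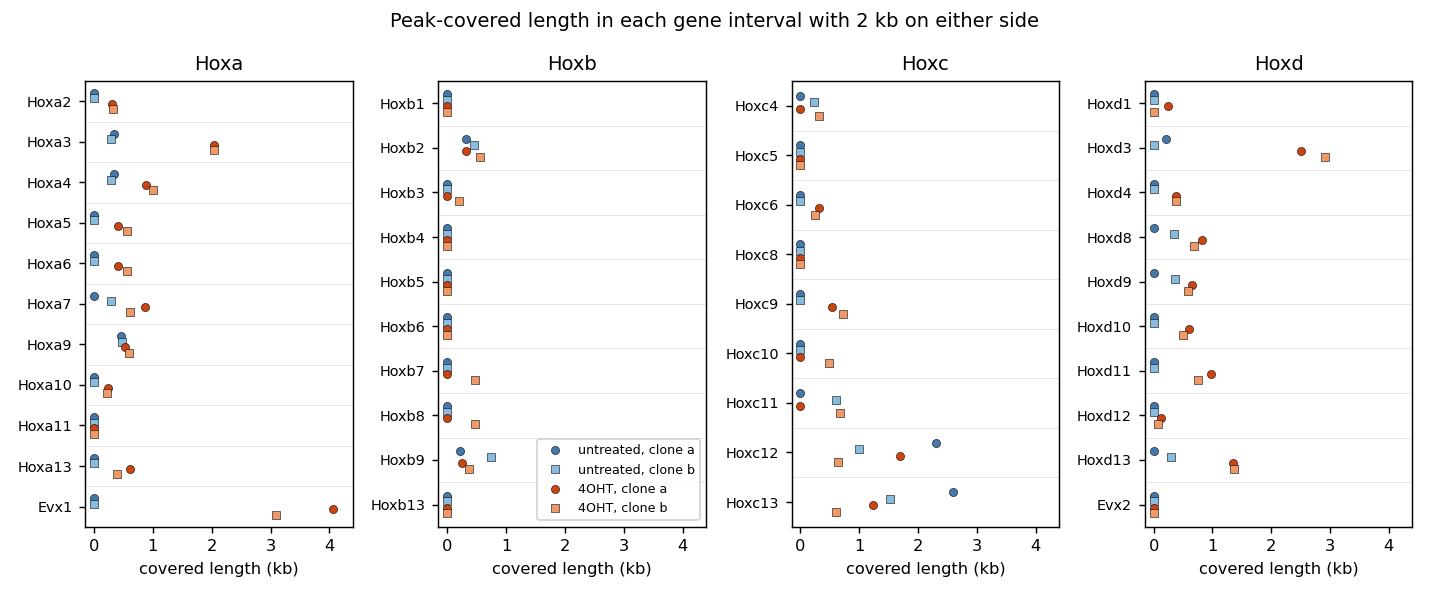
Peak-covered length (kb) in the interval of each of the 40 genes with 2 kb on either side, 1 point per library, by cluster and paralogue group. Treated values lie above untreated ones at 10 of 11 Hoxa genes with Evx1 and at 8 of 10 Hoxd genes with Evx2, while 8 of 10 Hoxb windows lie at 0 in at least 3 libraries.

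Both treated values lay above both untreated ones at 20 of 40 windows (23.9% of all genes) and below both at 1, Hoxc13 (10.4% of all genes). Only 8 windows reached the mean of 500 bp needed for testing, and 6 of these had an untreated mean below it, among them all 3 that rose. Of these 3 rose and 0 fell, Evx1, Hoxa3 and Hoxd3, against 3.43% of 12318 windows tested (2.05% upward and 1.37% downward). With no length filter, 3 rose and 0 fell among 31 windows with any peak, against 1.21% and 0.816% of 14958. With the clone block 4 rose and 1 fell, against 9.38% and 6.35%. With any single library left out, limma called 0 of these 40 and 0 of all windows, where 1695 to 2263 had an unadjusted p under 0.05.

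In the Hoxa cluster the low-group genes came first along the map. Hoxa2, a selector of the hindbrain and the branchial arches, had 0 bp in both untreated libraries and 299 and 316 bp in treated clones a and b, from a region of 319 bp inside the gene (chromosome 6, 52164153 to 52164471). Hoxa3, needed for the thymus and parathyroid, had 336 and 280 bp untreated and 2036 and 2042 bp treated. It rose by 1.65 ± 0.14 on the log2 scale (limma adjusted p = 0.0294), with no overlap of groups. Inside the Hoxa3 interval, regions gained in both clones lay at 52172340 to 52172623, 52172873 to 52173144, 52191153 to 52191717 in Hoxa4 and 52203857 to 52204255 in Hoxa5, a gene of lung and neck development. The shared window value of Hoxa5 and Hoxa6 was 0 bp in both untreated libraries and 399 and 562 bp in treated clones a and b. Hoxa4 itself had 336 and 280 bp untreated and 888 and 1000 bp treated (log2 change 0.84, limma adjusted p = 0.0999). Part of the Hoxa4 value is a region at 52191994 to 52192453 that all 4 libraries held.

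Further along, Hoxa7 had 0 and 282 bp untreated and 871 and 613 bp treated, and gained a region at 52217558 to 52217972. Hoxa9, a regulator of blood progenitors, had 464 and 476 bp untreated and 526 and 601 bp treated (log2 change 0.13, limma adjusted p = 0.764). Its value came from a single region, 52221193 to 52221793, 1.30 kb from the gene, which stood at percentiles 80.2 and 90.7 of the score in the untreated and 90.8 and 90.5 in the treated lists. The score is the authors' own and was read only as a rank within a list. The other strong constant region, 52158336 to 52159504, lay 2.91 kb outside Hoxa2 and was covered over 1003, 952, 1153 and 1109 bp in untreated a and b and treated a and b. Hoxa10, which acts in the uterus and the limb, had 0 bp untreated and 228 and 222 bp treated, but in separate short regions that did not overlap. Hoxa11 had none in any library. Hoxa13, required for digits and the urogenital tract, had 0 bp untreated and 608 and 394 bp treated, in a gained region at 52259916 to 52260597.

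Evx1, a gene of the primitive streak and of spinal interneurons, had the longest covered window of the 40 genes in treated cells. It was listed at 0 bp in both untreated libraries and at 4057 and 3094 bp in treated clones a and b (log2 change 3.02 ± 0.18 on the scale with 500 bp added, limma adjusted p = 0.0278). The treated peaks formed 2 gained regions, 52312913 to 52314775, which covers the start, and 52315189 to 52317382, inside the gene. By score they stood at percentile 79.4 in treated clone a and at 72.5 and 67.5 in treated clone b, the highest mean ranks among the gained regions of the 4 domains. The first also overlaps the antisense gene Evx1os, and the 2 cannot be separated here. The Evx1 interval itself, without flanks, held 0 bp untreated and 3472 and 3010 bp treated of the Hoxa domain's covered length. From Hoxa2 to Hoxa13 alone, without flanks, the log2 change was 1.79 ± 0.19 (limma adjusted p = 0.0239), an alternative added after seeing the data. It leaves out Evx1 and also the flank beyond Hoxa2, covered over 1003 and 952 bp untreated and 1153 and 1109 bp treated. The rise of the whole domain with only Evx1 taken out was not tested.

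**Figure D4:**
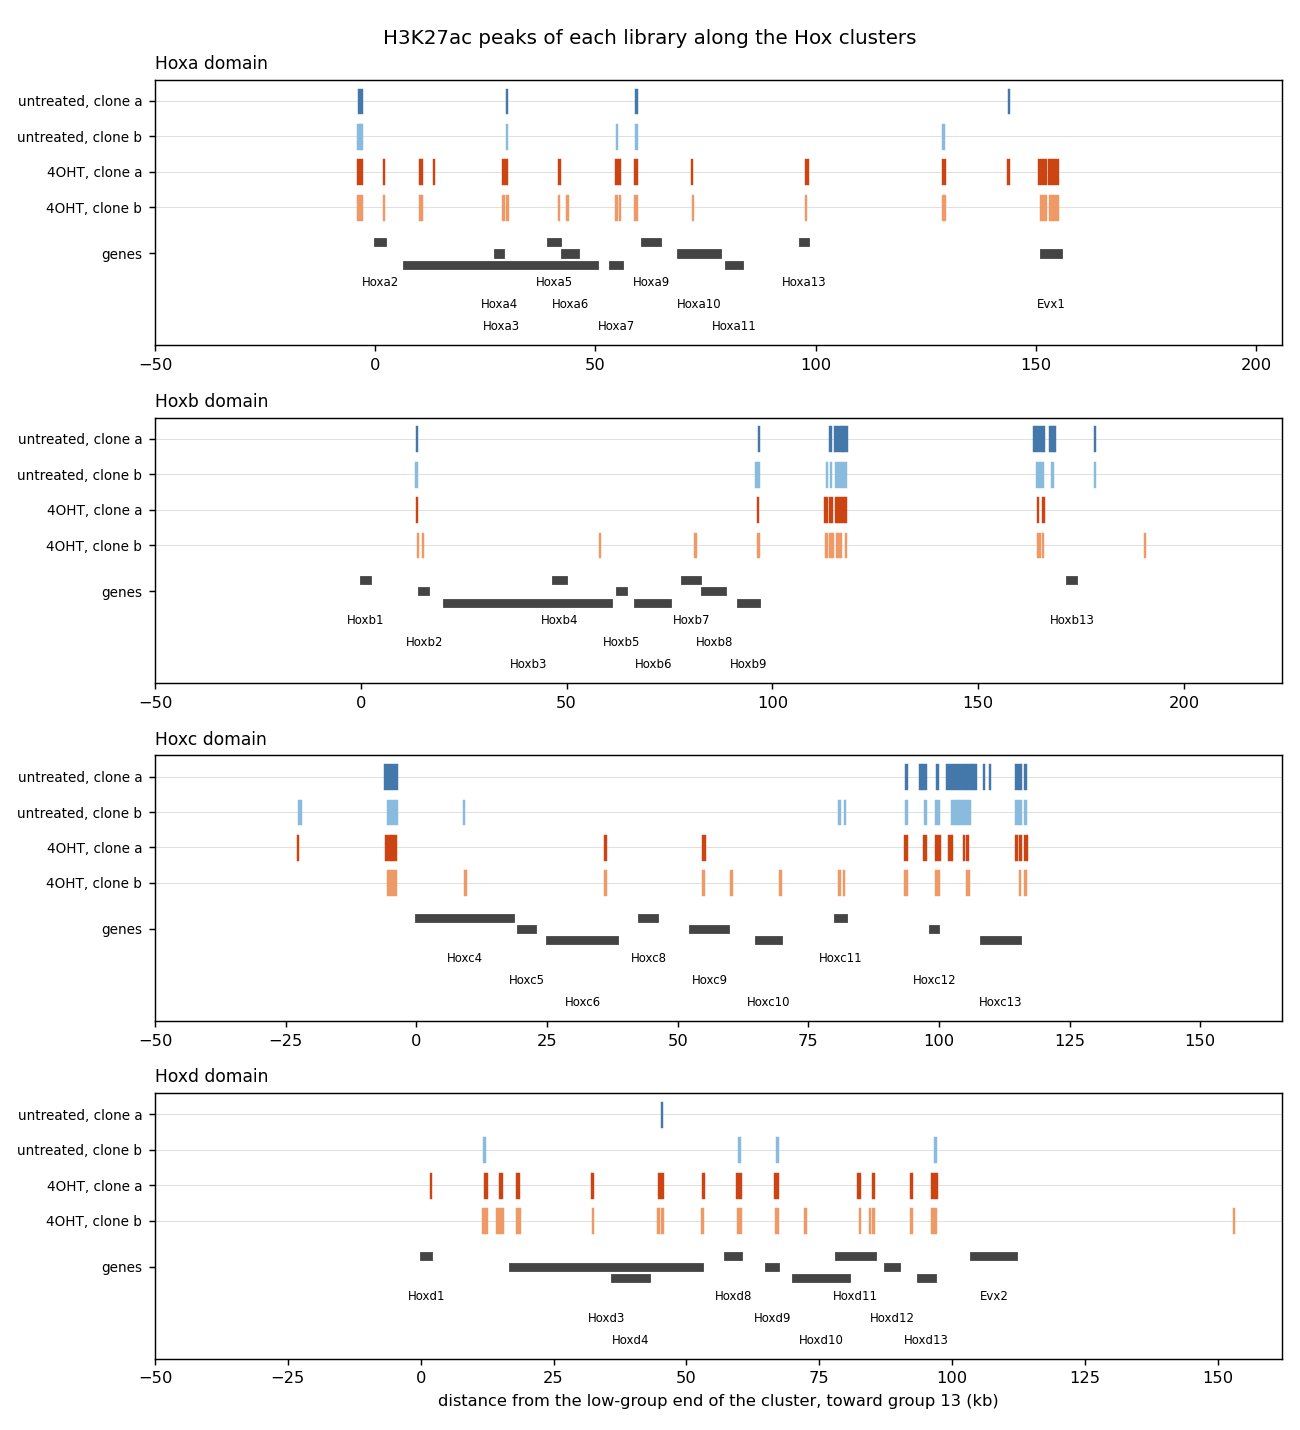
Peaks of each library along the 4 Hox domains, drawn to scale against distance in kb from the low-group end of the cluster toward group 13, with gene intervals below. Treated tracks hold 14 to 17 peaks in Hoxa and Hoxd against 1 to 6 in untreated tracks, and the peaks of Hoxb and Hoxc gather near groups 9 to 13.

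In the Hoxd cluster, 0 regions were held by all 4 libraries and 8 were gained in both clones. Hoxd1, at the low-group end, had a peak of 239 bp in treated clone a alone. Between Hoxd3 and Hoxd1, along the noncoding gene Haglr, 0 and 300 bp were covered untreated and 1034 and 2227 bp treated, with a gained region at 74749669 to 74750415. Hoxd3, which patterns the upper neck vertebrae, had 214 and 0 bp untreated and 2513 and 2921 bp treated (log2 change 2.43 ± 0.23, limma adjusted p = 0.0301). Its interval held 4 gained regions, at 74746375 to 74747291, 74732710 to 74733070, 74720130 to 74720615 and 74711916 to 74712405, the last across its start. Hoxd4 had 0 bp untreated and 387 and 380 bp treated, from the third of these.

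Middle and high groups of Hoxd also carried treated peaks. Hoxd8 had 0 and 340 bp untreated and 818 and 684 bp treated, and Hoxd9 had 0 and 371 bp untreated and 644 and 589 bp treated, with clone b already marked at both genes. Hoxd10 and Hoxd11, which pattern the hindlimb and forearm, had 0 bp in both untreated libraries. They reached 605 and 506 bp at Hoxd10 and 973 and 755 bp at Hoxd11 in treated clones a and b, with gained regions at 74682401 to 74683112 and 74679821 to 74680201. The Hoxd10 and Hoxd11 intervals overlap, so the windows share peaks. Hoxd12 had 0 bp untreated and 130 and 78 bp treated, which is the edge of a gained region at 74672726 to 74673142 between Hoxd12 and Hoxd13.

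Hoxd13, a gene of digit formation, had 0 and 296 bp untreated and 1350 and 1365 bp treated in clones a and b (log2 change 1.56 ± 0.29). Treated values lay well above untreated ones, and limma gave an adjusted p of 0.0673, or 0.0233 with the clone block. The start of Hoxd13 was covered in untreated clone b as well as in both treated libraries. Evx2, next to it, had no peak in its window in any library, in contrast to Evx1.

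The Hoxb cluster had 0 gained regions, against 6.2% of all 82792 union regions, and 2 lost ones, against 6.26%. Over Hoxb1 to Hoxb8 there was little to compare. Hoxb1, a hindbrain segment gene, and Hoxb4, Hoxb5 and Hoxb6 had no peak in any library, and Hoxb3, Hoxb7 and Hoxb8 had one in treated clone b alone (200, 474 and 474 bp). Hoxb2 had 326 and 449 bp untreated and 317 and 551 bp treated, and Hoxb9 had 209 and 748 bp untreated and 246 and 371 bp treated, with overlapping groups at both.

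Most of the Hoxb signal lay in the 74.7 kb between Hoxb9 and Hoxb13, a stretch with no other Hox gene, where 6486 and 4806 bp were covered untreated and 4351 and 3575 bp treated. The longest region, 96251436 to 96253176, 18.2 kb from Hoxb9 in the noncoding gene Gm53, was held by all 4 libraries over 1741 and 1663 bp untreated and 1384 and 1023 bp treated. Beside it, 96250200 to 96251324 was covered over 1099 and 1002 bp untreated and 718 and 320 bp treated. Nearer Hoxb13, 5.70 kb from it, the constant region 96202310 to 96202845 was covered over 536 and 315 bp untreated and 507 and 346 bp treated. The lost regions were 96200106 to 96200593 (488 and 256 bp untreated) and 96189788 to 96190156 (361 and 352 bp untreated), the first between Hoxb13 and Hoxb9 and the second beyond Hoxb13. Hoxb13, a prostate and tail gene, had no peak in its own window in any library.

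In untreated cells most of the covered length of the Hoxc domain lay at its high-group end. At the other end, 3.70 kb outside Hoxc4, the region 103040555 to 103043036 was held by all 4 libraries. It was covered over 2482 and 1645 bp untreated and 1952 and 1652 bp treated. The 8.01 kb between Hoxc12 and Hoxc13 had 5096 bp (clone a) and 3468 bp (clone b) covered without 4OHT and 1180 bp and 485 bp with it. Within it, 102931878 to 102935430 was covered over 3483 and 2623 bp untreated and 831 and 0 bp treated, and 102930651 to 102931756 over 1106 and 845 bp untreated and 261 and 485 bp treated. The latter stood at percentiles 92.9 and 91.4 in the untreated lists and 37.5 and 22.3 in the treated lists. Hoxc13, a gene of hair and nail, had 2585 and 1528 bp untreated and 1226 and 600 bp treated (log2 change -0.86 ± 0.32). The groups did not overlap, and limma gave an adjusted p of 0.225, or 0.0169 with the clone block. Hoxc12 had 2306 and 1000 bp untreated and 1699 and 642 bp treated (log2 change -0.37, adjusted p = 0.704 in limma), with overlapping groups.

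Other regions of the high-group end went in both directions. Inside Hoxc13, 102921149 to 102922309 was covered over 1071 and 1127 bp untreated and 581 and 235 bp treated, and 102939249 to 102940090, beyond Hoxc12, over 842 and 309 bp untreated and 528 and 0 bp treated. The region across the lower-coordinate end of Hoxc12, 102936738 to 102937563, was covered over 496 and 691 bp untreated and 826 and 642 bp treated. The region 102920017 to 102920661, 0.470 kb outside Hoxc13, was covered over 413 and 401 bp untreated and 645 and 365 bp treated. Middle genes of the cluster held the 2 gained regions of Hoxc. Hoxc6 had 0 bp untreated and 315 and 255 bp treated, at 103000604 to 103000931. Hoxc9, which sets the identity of thoracic motor neurons, had 0 bp untreated and 539 and 727 bp treated, with a region at 102981681 to 102982219. Hoxc10 had a peak in treated clone b alone (489 bp), and Hoxc5 and Hoxc8 had none.

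Counted as regions, the 4 domains held 78 union regions, of which 16 (20.5%) were in all 4 libraries against 36.4% of all regions. Of the 78, 19 were gained and 2 lost, against 6.2% and 6.26% of all union regions. Hoxa held 9 gained of 19 regions, Hoxd 8 of 18, Hoxc 2 of 22 and Hoxb 0 of 19. Within clone a, 30 regions (50% of those present in that clone) had a peak with 4OHT alone and 10 (16.7%) without it alone, against 20.2% and 22.7% of all union regions. Within clone b they were 33 (50%) and 7 (10.6%), against 23.0% and 21.9%. In Hoxa these numbers were 13 and 0 in clone a and 11 and 0 in clone b, and in Hoxd 13 and 0 in each clone. In Hoxc they were 3 and 5 in clone a and 4 and 4 in clone b. In Hoxb the clones differed, with 1 and 5 in clone a but 5 and 3 in clone b, although covered length was lower with 4OHT in both. By nearest gene, 4 gained regions of Hoxa lay at groups 1 to 4, 2 at groups 5 to 8, 1 at groups 9 to 13 and 2 at Evx1, and in Hoxd 5 lay at groups 1 to 4 and 3 at groups 9 to 13. Peaks of the domains were of middling rank, with median percentiles of 39.4 to 45.3 across the 4 lists.

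Windows of 50 kb on either side of each gene were also tested, and neighbouring genes largely share them. Of 40 such loci 36 were tested, and 18 rose and 1 fell, against 4.01% and 2.87% of all loci. Of the 18, 13 had an untreated mean under the 1000 bp filter and so were tested only because the treated libraries were high. The other 5, Hoxa2 to Hoxa6, were above it. With no filter 18 of 40 rose and 0 fell, against 2.4% and 1.71% of 18884 loci. The 18 of the filtered fit were 9 of 11 loci of Hoxa with Evx1 and 9 of 10 of Hoxd with Evx2, and the 1 that fell was Hoxc13 (8068 ± 1497 bp untreated and 3982 ± 311 bp treated, SD, n = 2 clones; limma adjusted p = 0.0429). The exceptions were Hoxa11, Hoxa13 and Evx2, with adjusted p of 0.0594, 0.0661 and 0.0638 in limma. With the clone block 21 rose and 6 fell, against 22.7% and 15.5%. Without untreated clone a, treated clone a or treated clone b none of the 40 passed, and without untreated clone b 19 rose and 1 fell.

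Genes that work with or upstream of Hox genes were read in the same way. Over all loci (50 kb on either side), 4.01% rose and 2.87% fell, and with the clone block 22.7% and 15.5%. Of 7 CDX and ParaHox loci 3 rose and 0 fell, and 4 and 0 with the block. Cdx2, a direct activator of Hox genes in the posterior embryo, went from 0 and 0.798 kb to 4.81 and 3.82 kb in clones a and b (log2 change 2.57, limma adjusted p = 0.0429). Pdx1 (2.64) and Gsx1 (1.55) rose as well, but the 3 are neighbours on chromosome 5. The Pdx1 window overlaps those of Cdx2 and Gsx1, which do not overlap each other, so the 3 do not count as 3 separate results. Cdx2 and Pdx1, with untreated means of 0.399 and 0.279 kb, were under the 1000 bp filter. They were tested only because the treated libraries were high, while Gsx1 (1.48 kb untreated) was above it. Of 9 loci of PBX, MEIS and PREP cofactors, which bind DNA together with Hox proteins, 0 rose and 1 fell (3 and 2 with the block). This was Pknox2, which fell from 16.6 and 16.3 kb to 4.20 and 3.72 kb (log2 change -1.93, limma adjusted p = 0.0239).

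Retinoic acid is a known inducer of Hox genes, and of 12 tested loci of its pathway 1 rose and 1 fell, and 4 and 4 with the block. Crabp2, a retinoic acid carrier, rose by 0.57 and Dhrs3, which lowers retinoic acid by reducing retinal, fell by 1.79, from 7.95 and 8.15 kb to 1.65 and 2.34 kb. Of 29 Polycomb loci 0 rose and 0 fell in limma, with 12 and 1 under the clone block. Of 12 loci of Trithorax and K27 demethylase genes 1 rose and 0 fell (5 and 1 with the block), the riser being Kdm6b, a demethylase of the Polycomb mark (11.3 and 11.3 kb to 17.5 and 20.1 kb; log2 change 0.70, limma adjusted p = 0.0389). Of 18 tested genes that flank the clusters 0 rose and 0 fell, and 1 and 3 did under the block.

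Markers of other cell types moved with the Hoxa and Hoxd domains in part. In the genes with 2 kb on either side, 6 mesoderm and streak markers summed to 0.512 and 1.41 kb in untreated and 4.03 and 4.41 kb in treated clones a and b. Fibroblast markers summed to 0.657 and 0.717 kb untreated and 2.43 and 3.45 kb treated, with Prrx1, Col1a2 and Thy1 at 0 in all libraries and Twist1 going from 0 to 1662 and 2115 bp. Neural markers summed to 4.76 and 3.604 kb untreated and 7.64 and 6.10 kb treated, with Neurog2 at 0 in all libraries. Primitive endoderm markers summed to 0 and 0.496 kb untreated and 0.407 and 0.870 kb treated, and the 7 pluripotency markers to 82.4 and 79.4 kb untreated and 90.2 and 86.6 kb treated. At the 50 kb loci, 1 rose and 1 fell of 4 tested mesoderm loci, and likewise of 3 tested neural loci, against 4.01% and 2.87% of all loci. Mesp1, of the mesoderm list, rose from 0.437 to 2.52 kb (log2 change 1.68, limma adjusted p = 0.0289). Nes, of the neural list, rose from 4.01 to 8.01 kb (log2 change 0.92, limma adjusted p = 0.0378). The untreated mean of Mesp1 was under the 1000 bp filter, so it was tested only because the treated libraries were high. Msgn1, a presomitic mesoderm gene, fell from 8.75 to 3.81 kb (log2 change -1.10, limma adjusted p = 0.0387), and Sox1, a neural progenitor gene, from 7.47 to 4.32 kb (log2 change -0.73, limma adjusted p = 0.0421). The part of other cell types in the Hox result was not tested.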

How the data were processed

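H3K27ac was measured by ChIP-seq in 4 libraries, 2 untreated and 2 given 4OHT (the 4 inputs: not analysed here). The submitters' processing notes name Bowtie2, bedtools, MACS2 and mm10. Versions, thresholds and how inputs entered were not given in the sources used here. A deposited file holds 1 library's peaks with the authors' score for each, on no stated scale. Start and end columns are the other deposited values used. The files hold no counts, so depth is unknown.

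Peaks overlapping by 1 bp or more across lists were merged into union regions. Gained means a peak in both treated and neither untreated library, and lost the opposite. Covered length was summed per library over each domain, over each protein-coding gene with 50 kb flanks (domains added as rows) and over each gene with 2 kb flanks. Features with a mean of at least 1000 bp (50 kb flanks) or 500 bp (2 kb flanks) were compared with limma 3.58.1 in R 4.3.3 on log2(covered bp + 500), with a mean-dependent prior and Benjamini-Hochberg adjustment over all features at 0.05. Covered length moves with the extent of peak calling as well as with the mark. The fit was tested on simulated data.

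Clones pair the treatments per the labels, and the log2 deviations from group means of same-clone libraries had a correlation of 0.611 over loci. Clone as a block was therefore an alternative. It leaves 1 residual degree of freedom against 6.64 borrowed ones. Gene intervals came from RefSeq GRCm38.p6. The genes, lists and tests were chosen with earlier results of these data known. Values were given for all 40 genes, for regions gained or lost in the domains, for up to 3 regions per cluster held by all libraries and ranked highest by score, and for genes of 6 related lists that passed the threshold. Other alternatives were score filters, pseudocounts, flanks, scaling, no length filter, other merging rules and leaving out each library.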

Additional observations from a re-analysis of the deposited data

Results flagged for a closer look

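At 2 genes the clones moved in opposite directions with 4OHT, a difference that was not tested and that rests on 1 pair of libraries per clone. Covered length in the Hoxb2 window changed by -9 bp in clone a and by 102 bp in clone b. In the Hoxb9 window it changed by 37 bp in clone a and by -377 bp in clone b.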

How the results depend on the processing

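Hoxa and Hoxd rose and Hoxb and Hoxc had negative log2 changes under every alternative run for the domains. With a library left out, the log2 change ranged from 1.74 to 1.98 for Hoxa and from 2.19 to 3.52 for Hoxd. The calls at Hoxa (1.54) and Hoxd (2.13) were lost among the top 20000 peaks of each list, a fit in which 0 of 13762 loci passed (2887 at unadjusted p under 0.05), and the one at Hoxd (3.56) also with 100 bp added. With clone as a replicate block Hoxb (-0.38) and Hoxc (-0.58) passed as well. The cause of these shifts was not tested.

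Of 36 tested 50 kb loci, 18 rose and 1 fell. The number that rose was 5 of 33 in the upper 50% by score (1.21% of all loci), 0 of 15 in the top 20000, 4 of 12 with 10 kb flanks (3.31% of all loci) and 0 to 19 with a library left out. The number that fell was 0 in both score settings, with 10 or 100 kb flanks and with no length filter, 6 with the replicate block and 0 to 1 with a library left out. Of the 2 kb windows, 3 rose and 0 fell, against 1 rising in the upper 50%, 0 in the top 20000 and 0 with any library left out, and against 1 falling with the replicate block or 5 kb flanks. Gained regions numbered 19, and 6 in the upper 50%, 2 in the top 20000 and 20 to 33 with a library left out, where fewer libraries must agree. Lost regions numbered 2, and 5 in the upper 50%, 4 when 50% of a region must be covered, 1 without flanks and 2 to 10 with a library left out.

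Direction turned for none of the genes that passed. It turned at the Hoxc12 window, to 0.076 in the upper 50% by score and 0.13 for the gene alone, and ranged from -0.85 to 0.10 with a library left out (0.079 with untreated clone a removed). At the 50 kb loci of Hoxc4, Hoxc5, Hoxc6 and Hoxc8 it turned to -0.43 in the upper 50% and -0.58 with 100 kb flanks, at Hoxc4 to -0.11 with 10 kb flanks and at Hoxb5 to -0.18 with 100 kb flanks. The score scale, the unknown depth and 2 clones per group limit all of these values.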

Other observations

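Some regions of the domains had a peak in both treatments of 1 clone and in neither treatment of the other. Their peaks stood at score percentiles of 4.94 to 39.9, and the share of all union regions with this pattern was not counted. A missing peak does not show that the mark is absent. In clone b, 3 regions were present both without and with 4OHT while clone a had no peak there. Those of Hoxc11 covered 382 and 227 bp untreated and 413 and 266 bp treated, and the one in Hoxc4 covered 226 and 316 bp. In clone a, 1 region, 7.16 kb from Evx1, was present in both treatments alone, over 340 bp untreated and 288 bp treated. Hoxc11 is a gene of the hindlimb and lower trunk, and its window had 0 bp in clone a in either treatment.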
